A study of Drosophila melanogaster with 4 samples.

Results

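Cuticle protein genes encode the structural proteins that epidermal cells secrete into the chitin layer of the insect body wall, and 123 of the 13990 genes of the deposited table belonged to this group. They were chosen by name: symbols beginning with Cpr and a digit, Twdl, Ccp84A, Lcp and a digit, or Edg and a digit, together with Pcp, resilin, Acp1 and Acp65Aa. RNA had been sequenced from Trizol extracts of adult Drosophila melanogaster males, 0 to 16 hr old and raised at 25 °C. The males of all 4 genotypes carried at least 1 copy of an Ago2 allele, V966M or 51B. The V966M heterozygote had it over the balancer chromosome TM3 with twi-GFP, Sb and Ser, and the V966M homozygote had 2 copies of V966M. The 51B heterozygote had its allele over TM3 with Ser and y+, and the 51B homozygote had 2 copies of 51B. No genotype without a mutant Ago2 allele was among the samples, and the labels name neither a body part nor the number of flies per library. TM3 is a rearranged version of chromosome 3 that keeps recombinants from being recovered, and on that chromosome Ago2 and 79 of the 123 cuticle protein genes lie. The other 44 lie elsewhere.

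Most of these proteins carry the Rebers-Riddiford domain, which binds chitin, and the Cpr, Lcp, Ccp84A and Edg78E and Edg84A genes are of this kind. Tweedle proteins, encoded by the Twdl genes, are a separate cuticle protein family known for mutants with short, stout bodies. Flies build a new cuticle for each larval stage, for the pupa and for the adult, and each uses its own subset of genes. Ecdysone pulses and the nuclear receptor ftz-f1 time that switch. Adult flies leave the pupal case with a soft, pale cuticle, which is tanned over the following hours and thickened on its inner side over the following days.

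The table gave 1 FPKM value per gene and genotype (fragments scaled by transcript length and by mapped fragments) with a lower and an upper bound, here called the deposited interval. Because each genotype had a single value, differences have no replicate check and no p-value, and the number of reads behind a value is unknown. The words "called higher" or "called lower" are used where log2 of the ratio of (FPKM + 1) was at least 1 in size, a 2-fold change, with deposited intervals that lay apart. Calls were made among 10872 genes with status OK in every genotype and a mean of at least 1 FPKM. Of the 123 cuticle protein genes, 57 passed this filter, 65 had a lower mean, and Cpr57A was left out because its quantification status was LOWDATA. A gene at low level passes such a filter more easily when it is high in some genotype, so the 57 are not a sample of all 123. Where 4 values follow each other, the V966M pair comes before the 51B pair and each heterozygote before its homozygote.

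Ago2 itself, whose locus holds 1 other gene in the table, had 150.0, 101, 46.5 and 6.33 FPKM, lowest in the 51B homozygote. Summed FPKM of all genes with status OK ran from 452172 to 589964. In each genotype the roX1 and roX2 RNAs of the male X chromosome (summed 60.7 to 124 FPKM) and 11 accessory gland genes (934 to 1638 FPKM) were present, and 10 yolk protein, chorion and vitelline membrane genes together had 19.5 to 25.7 FPKM. Summed, 7 muscle markers with status OK, of 12 listed, had 22159, 17661, 14126 and 13361 FPKM, and 11 testis markers had 2913, 2290.3, 3799 and 4206 FPKM. Gut markers had 5019, 3589, 1786 and 2319 FPKM. Of these 12 genes, 10 were called higher in the V966M than in the 51B heterozygote, where 2.73% of all analysed genes were. In the 51B homozygote against its heterozygote 3 gut markers were called higher and 2 lower (all analysed genes 1.69% and 1.12%). Their sum therefore hides opposite changes. Fat body markers had 406, 411, 317 and 630.3 FPKM, and these too were split within 51B. There Lsp2 and Lsp1beta were called higher in the homozygote, and Lsp1gamma and fit lower. The part of these differences in the values below was not tested. In bulk RNA, fewer cells of a type and less RNA per cell cannot be told apart. Among cuticle protein genes of at least 5 FPKM, the median half-width of the deposited interval was 27.3%, 19.0%, 17.6% and 33.2% of the value. Over all analysed genes of that level it was 24.9%, 16.6%, 15.7% and 29.2%. In both sets the V966M heterozygote and the 51B homozygote were thus measured least precisely.

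A few genes carried nearly all of the cuticle transcript. Summed over the 123 genes, the level was 6810, 5778, 4278 and 5591 FPKM. The 30 genes with the highest means held 98.2% of the summed mean, and the other 93 held 1.83%. Acp1, an adult cuticle protein gene on 2L from 7740553 to 7741542 in build dm3, was the highest in every genotype, with 3062, 2511, 1869 and 2046 FPKM. Without it the other 122 genes made up 57.8% of the sum. Its 4 intervals, which ran from 1339 to 4011 FPKM, all overlapped, and the largest ratio between genotypes was 1.64, between the heterozygotes.

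**Figure D1:**
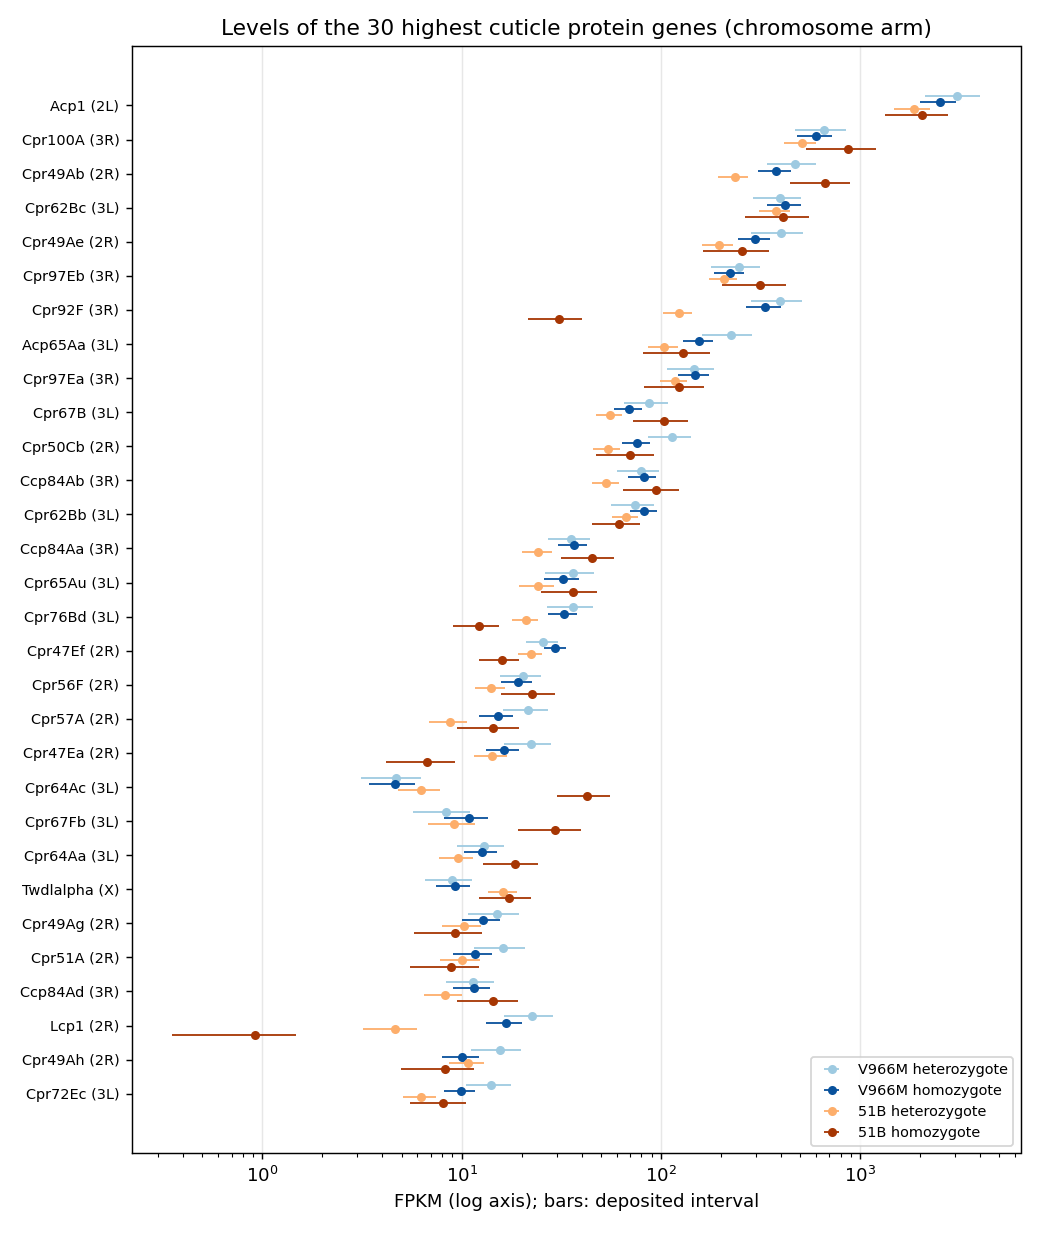
FPKM (log axis) of the 30 cuticle protein genes with the highest mean, in rank order with their chromosome arm. Each point is the value of 1 genotype and each bar its deposited interval; Acp1 lies above all others in every genotype, and Cpr92F, Cpr64Ac and Lcp1 spread most between genotypes.

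Behind Acp1 came Cpr100A on 3R, with 660.3, 602, 509 and 873 FPKM. Cpr62Bc, on 3L, had 398, 422, 379 and 410.2 FPKM, and its highest value was 1.11-fold its lowest. That was the narrowest spread among the 30 highest genes, whereas Lcp1 had the widest at 24.5-fold.

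Cpr97Eb, on 3R, had 248, 223, 208 and 313 FPKM. Its neighbour Cpr97Ea had 146, 148, 117 and 123 FPKM. For each of these 2 genes the intervals of all genotypes overlapped, and neither was called. Acp65Aa, the adult member of the 65A gene group, had 225, 156, 104 and 129 FPKM and was highest in the V966M heterozygote. In all, 9 of the 123 genes had a mean of at least 100 FPKM and 29 of at least 10 FPKM.

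Among genes of intermediate level, some were not called in any comparison. Cpr67B, on 3L, had 87.4, 69.2, 55.8 and 104 FPKM, highest in the 51B homozygote, whose interval (72.1 to 137) did not overlap that of its heterozygote (47.5 to 64.1). Cpr62Bb, next to Cpr62Bc, had 74.3, 82.8, 66.7 and 61.9 FPKM with overlapping intervals. Cpr47Ef, on 2R, had 25.8, 29.6, 22.3 and 15.9 FPKM and was lowest in the 51B homozygote. None of these 3 reached a 2-fold change in any comparison. Cpr57A, with LOWDATA status, was listed at 21.6, 15.2, 8.77 and 14.4 FPKM.

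The families differed in level by orders of magnitude. Among 69 Cpr genes, 22 had a mean of at least 10 FPKM and 21 stayed below 1 FPKM in every genotype. Of the 7 Ccp84A genes, 3 reached a mean of 10 FPKM, led by Ccp84Ab with 79.4, 81.9, 53.3 and 94.2 FPKM. Of 15 Lcp genes, which take their name from larval cuticle, 11 stayed below 1 FPKM in every genotype and Lcp1 alone had a mean above 10 FPKM. Among 25 Tweedle genes, 19 stayed below 1 FPKM throughout, and Twdlalpha alone had a mean above 10 FPKM, with 8.92, 9.26, 16.2 and 17.3 FPKM. Twdlalpha shares its deposited locus with 5 other genes, so its value depends on how fragments were divided among them.

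Genes named for the pupal and ecdysone-regulated cuticle were low. The pupal cuticle gene Pcp, nested within another gene at its locus, had 1.40, 1.42, 1.29 and 1.93 FPKM. Edg91 had 2.08, 2.92, 1.77 and 3.72 FPKM, and Edg78E and Edg84A had means of 0.862 and 0.110 FPKM. The gene for resilin, the rubber-like protein of elastic joints and tendons, had 0.629, 0.812, 0.906 and 1.28 FPKM. Cpr65Ay was listed at 0 in all 4 genotypes, and 9 genes were listed at 0 in at least 1.

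Neighbouring cuticle genes were expressed at very different levels. With gaps of up to 20 kb, 90 of the 123 genes fell into 16 runs of 3 or more. The largest run held 17 genes within 31.2 kb on 3L, from Lcp65Ag3 to Cpr65Az. Acp65Aa held 80.5% of the summed mean there, Cpr65Au had 36.2, 32.3, 24.2 and 36.4 FPKM, and the median mean over the run was 0.260 FPKM. On 3R, a run of 12 Tweedle genes from TwdlM to TwdlD spanned 21.9 kb and had a highest mean of 1.86 FPKM, that of TwdlP. Copies such as Lcp65Ab1 and Lcp65Ab2, Lcp65Ag1 to Lcp65Ag3, and Cpr67Fa1 and Cpr67Fa2 are alike in sequence, so their single values are uncertain.

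**Figure D2:**
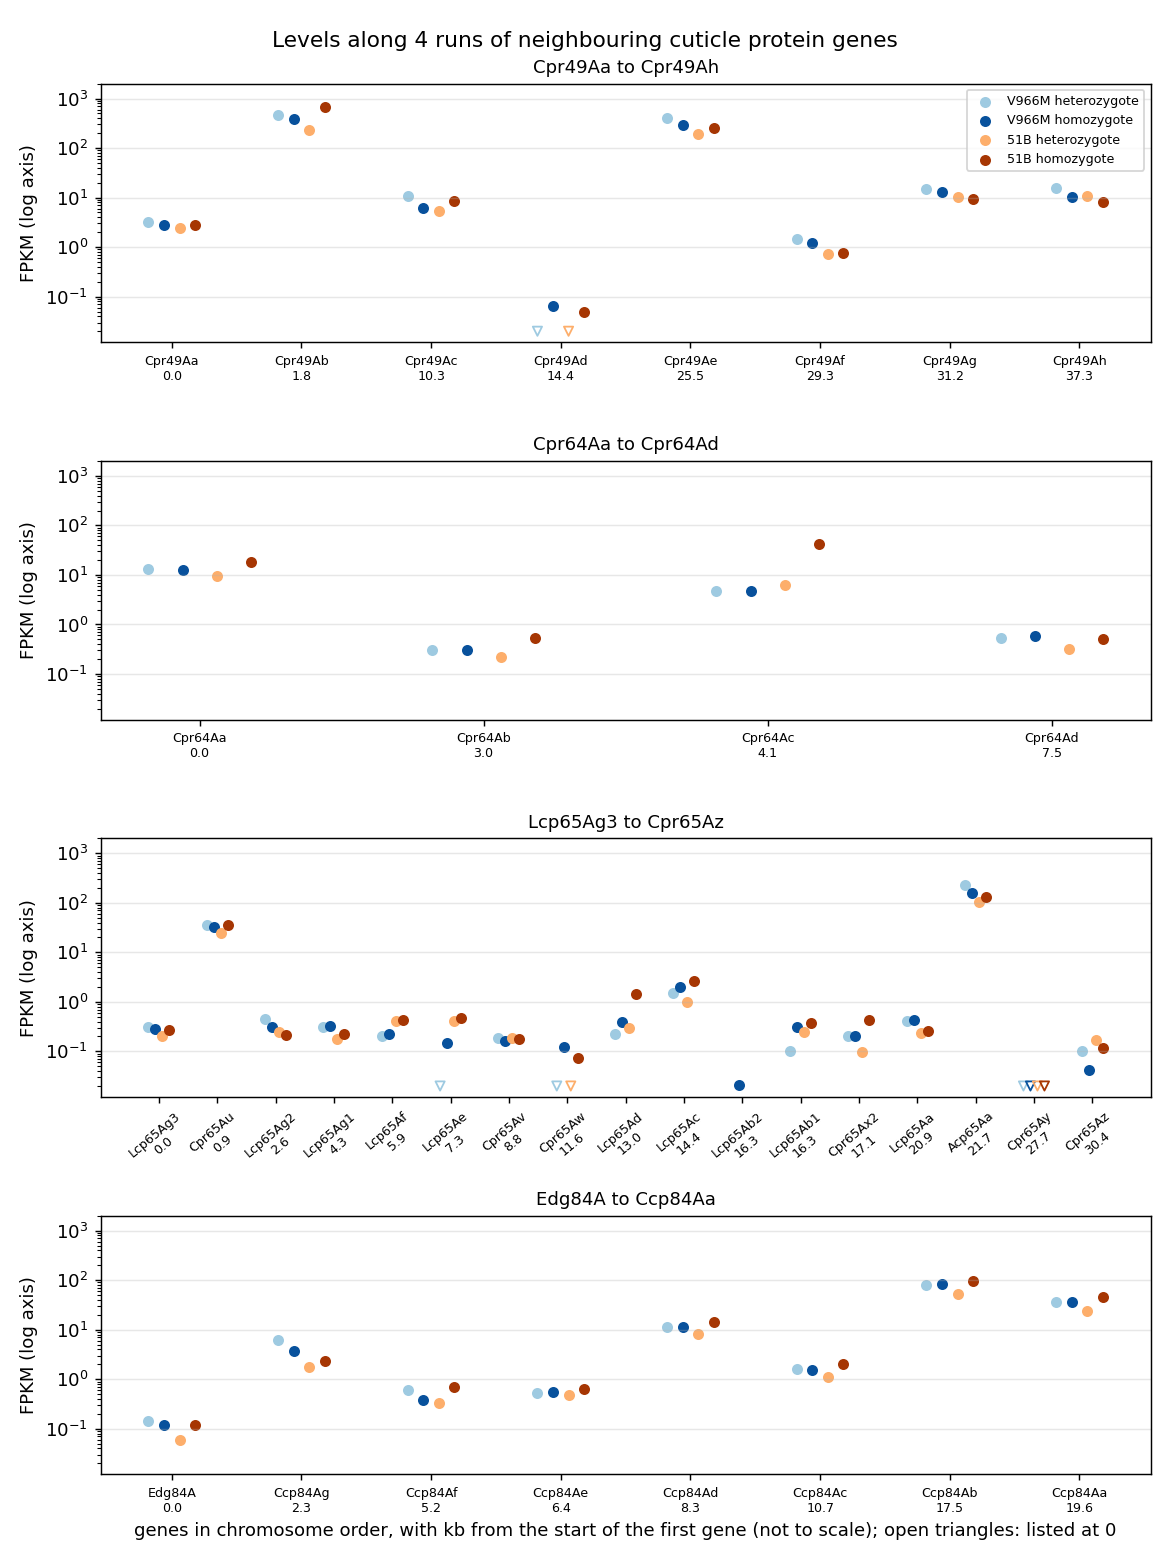
FPKM (log axis) of the genes of 4 runs in chromosome order, with the distance of each start from that of the first gene in kb. Points are the 4 genotypes and open triangles genes listed at 0; within the 17-gene run on 3L, Acp65Aa and Cpr65Au stand above neighbours whose means are mostly below 1 FPKM.

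The genes also shared a compact structure, which their names had not selected. All 123 were matched by symbol or synonym to the Ensembl annotation of BDGP6, a later build used for structure only. Their median coding length was 192 residues, against 391 over 13985 protein-coding genes, and 79 (64.2%) had 2 coding exons, against 21.7% of all. In 43 of the 123 (35.0%) the first coding exon contributed exactly 12 coding bases, against 1.05% of all protein-coding genes. This held for 7 of 7 Ccp84A, 27 of 69 Cpr, 5 of 15 Lcp and 0 of 25 Twdl genes. Only exactly 12 bases were counted: Twdlalpha, TwdlV, TwdlM and other Tweedle genes had 15. Not all Tweedle genes were so short there, as TwdlP had 660. Highly expressed genes had it about as often, with 11 of the 29 genes of at least 10 FPKM. Such short first coding exons, ending within the signal peptide, are a known trait of cuticle genes.

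The comparison within the 51B stock asked how the homozygote differed from its heterozygote. Called higher were 4 of the 57 analysed cuticle genes, Cpr64Ac, Cpr67Fb, Cpr49Ab and Cpr76Bb, where 1.69% of all analysed genes were called higher. Called lower were Cpr92F and Lcp1, where 1.12% of all were called lower. The median log2 change was 0.27 over the 57 genes and 0.07 over all analysed genes (0.18 and -0.04 after rescaling, in which every genotype's values were divided by a factor that centres its ratios to the genotypes' geometric mean). Rescaled, 3 were called higher and 4 lower, where 1.29% and 1.45% of all analysed genes were. With a pseudocount of 0.1 FPKM in place of 1, 6 were called lower, where 1.91% of all were: Cpr11A, Cpr11B, Cpr47Ea and TwdlT joined Cpr92F and Lcp1. Higher in value in the 51B homozygote were 64.9% of the 57 genes and 59.3% of all analysed genes, and 56.1% and 45.4% after rescaling. Without the filter, 122 genes had a median of 0.10, and Cpr66Cb (1.77 and 0.322 FPKM) and TwdlS (1.197 FPKM and listed at 0) also met the rule for lower.

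Cpr64Ac, a Rebers-Riddiford gene on 3L from 4211964 to 4212915, had 4.70, 4.65, 6.27 and 42.8 FPKM. The 51B homozygote (interval 30.3 to 55.3) stood alone, and the other 3 intervals, from 3.14 to 7.75 FPKM, overlapped one another. The homozygote was 6.82-fold above its heterozygote (log2 change 2.59), the largest change to a higher value among the 57. All 4 genes of its run were higher in value in the 51B homozygote, by 1.55 to 6.82-fold, as were 59.3% of all analysed genes. Cpr64Aa had 13.0, 12.7, 9.55 and 18.5 FPKM without being called. Cpr64Ab (0.224 and 0.525 FPKM in 51B) and Cpr64Ad (0.325 and 0.504 FPKM, the 1.55-fold) were under the filter, and the Cpr64Ad intervals overlapped.

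Cpr67Fb, on 3L from 10887273 to 10887793, had 8.37, 10.8, 9.21 and 29.4 FPKM. Again the 51B homozygote (19.3 to 39.6) lay above intervals that overlapped one another, 3.20-fold above its heterozygote. The neighbouring Cpr67Fa2 did not share this, with 1.43, 1.501, 1.47 and 0.745 FPKM.

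Cpr49Ab, the third highest cuticle gene, lies on 2R, from 8265962 to 8266901. Its values were 473, 378, 235 and 667 FPKM, and the 51B heterozygote (195 to 275) was below all others, with no overlap. The homozygote (445 to 889) was 2.84-fold above it. Cpr76Bb had 3.32, 2.94, 1.98 and 5.28 FPKM, and its call was not kept after rescaling (log2 change 1.08 as deposited and 0.99 rescaled).

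Cpr92F was the highest gene with a call to a lower value, on 3R from 16495293 to 16498538. Its levels were 398 FPKM (283 to 513), 334 FPKM (268 to 400.3), 123 FPKM (103 to 143) and 31.0 FPKM (21.5 to 40.4). The V966M genotypes overlapped, the 51B heterozygote was below both, and the 51B homozygote was lowest, 3.98-fold below its heterozygote (log2 change -1.96). Lcp1, a larval cuticle gene on 2R from 4318139 to 4318737, had the same order, with 22.5, 16.7, 4.61 and 0.918 FPKM. Its 51B intervals (3.21 to 5.998 and 0.354 to 1.48) did not overlap, a 5.02-fold difference.

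Lcp2, the neighbour of Lcp1 and a close copy of it, had 2.74, 2.41, 0.634 and 0.255 FPKM. Fragments can be shared between such copies, so both values may not be independent. Within 51B the Lcp2 intervals overlapped and it was not called. Lcp3 and Lcp4, further along the same run, stayed at or below 0.865 and 0.219 FPKM. Cpr47Ea, which shares its locus with the odorant receptor gene Or47a, had 22.2, 16.4, 14.3 and 6.71 FPKM. Its 51B log2 change of -0.99 fell short of the threshold as deposited and passed it after rescaling (-1.10).

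**Figure D3:**
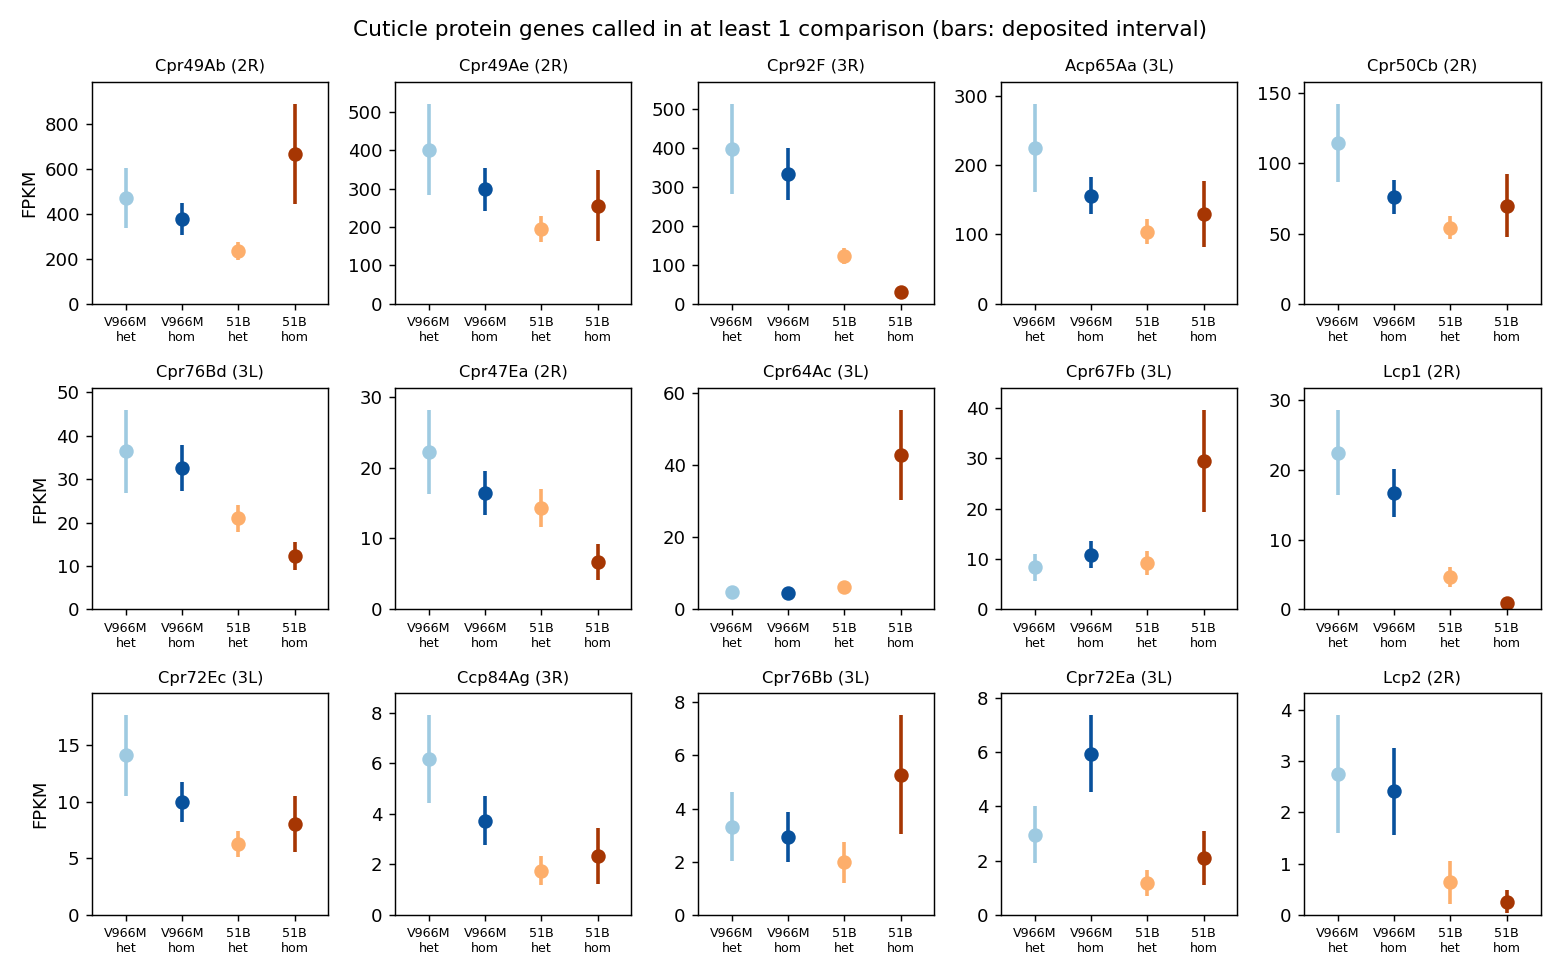
FPKM (linear axis from 0) of the 15 cuticle protein genes called in at least 1 comparison, by genotype, with deposited intervals as bars. Cpr64Ac and Cpr67Fb are high in the 51B homozygote alone, while Cpr92F, Lcp1 and Lcp2 descend from the V966M heterozygote to the 51B homozygote.

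None of the Ccp84A genes was called within 51B, though their values lay on the same side. All 7 were higher in the 51B homozygote than in its heterozygote, by 1.33 to 2.07-fold, also after rescaling (7 of 7). Higher in value were 59.3% of all analysed genes, 45.4% after rescaling, and 72.3% of the 65 cuticle genes under the filter. The 2.07-fold was that of Ccp84Af (0.334 and 0.692 FPKM), which like Ccp84Ae had a mean below 1 FPKM. For these and for Ccp84Ac, Ccp84Ad and Ccp84Ag the 51B intervals overlapped. Ccp84Aa had 35.6, 36.5, 24.2 and 45.01 FPKM, and its 51B intervals (20.2 to 28.3 and 31.5 to 58.5) did not overlap. Nor did those of Ccp84Ab (45.2 to 61.4 and 64.5 to 124). Ccp84Ad had 11.4, 11.5, 8.23 and 14.3 FPKM. In V966M, 4 of the 7 were higher in the homozygote, with ratios of 0.606 to 1.03, and 5 of 7 after rescaling. Ccp84Ag was the odd one in level, with 6.15, 3.73, 1.75 and 2.32 FPKM and its highest value in the V966M heterozygote. The run also holds Edg84A, which stayed at or below 0.144 FPKM.

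Within the V966M stock, 0 of the 57 genes were called higher and 0 lower, where 0.0644% and 0.35% of all analysed genes were called. The changes ran from -0.76 to 0.81 on the log2 scale, with a median of -0.14, against -0.25 over all analysed genes. After rescaling these medians were 0.11 and -0.0046, so the sign of the cuticle gene median followed the scale. Higher in value in the V966M homozygote were 21 of 57 cuticle genes (36.8%) and 6.33% of all analysed genes, and after rescaling 68.4% and 48.9%. Cpr72Ea had the largest change, with 2.95 FPKM (1.90 to 4.001) and 5.93 FPKM (4.52 to 7.34), 2.01-fold. Its log2 change was 0.81 as deposited and 1.02 after rescaling, when it was called higher. The adult genes Acp1 and Acp65Aa had 0.820 and 0.694 of the heterozygote's level in the homozygote, with overlapping intervals.

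Between the heterozygotes of both stocks, each carrying TM3 with different markers, all calls went one way. The V966M heterozygote was called higher for 9 of 57 genes and lower for 0, where 2.73% of all analysed genes were higher and 0.304% lower. The 9 were Lcp1, Cpr92F, Ccp84Ag, Lcp2, Acp65Aa, Cpr50Cb, Cpr72Ec, Cpr49Ae and Cpr49Ab. Lcp1 differed by 4.89-fold and Cpr92F by 3.23-fold.

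Scale decided 5 of these 9 calls. Cpr49Ae, with 401, 299, 195 and 256 FPKM, and Cpr50Cb, with 114, 76.0, 54.1 and 69.7 FPKM, had log2 differences of 1.04 and 1.07 as deposited and 0.76 and 0.79 rescaled. Acp65Aa (1.10 and 0.82), Cpr72Ec (1.05 and 0.80) and Cpr49Ab (1.01 and 0.73) also lost their calls. Cpr72Ec encodes a corneal lens protein and had 14.1, 9.97, 6.27 and 8.02 FPKM. Rescaled, Lcp1, Cpr92F, Ccp84Ag and Lcp2 were called higher and Twdlalpha lower (log2 difference -1.05), where calls over all analysed genes went to 1.23% higher and 0.717% lower. The median difference over the 57 genes was 0.37, against 0.26 over all genes, and 0.15 against 0.02 after rescaling.

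Between the homozygotes, which carry no balancer, the V966M homozygote was called higher for 6 of 57 genes and lower for 2, where 2.75% and 2.78% of all analysed genes were called. Cpr92F was 10.8-fold and Lcp1 18.2-fold higher in V966M, and Lcp2 was 9.46-fold higher. Cpr47Ea, Cpr72Ea and Cpr76Bd made up the rest of the higher genes. Cpr76Bd, whose product of 1231 residues was the longest of the 123, had 36.4, 32.6, 21.0 and 12.2 FPKM. Lower in V966M were Cpr64Ac, 9.20-fold, and Cpr67Fb, 2.71-fold. All 8 calls were kept after rescaling. The median difference over the 57 genes was 0.22, against -0.11 over all analysed genes, and 0.34 against -0.01 after rescaling. Over the 122 genes without the filter the deposited median was -0.0025. This adds 65 genes with means below 1 FPKM, where the added 1 FPKM draws log2 values toward 0.

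Each genotype served in 2 of the 4 comparisons, so calls of the same gene in several of them are not independent. In all, 15 genes had 23 calls: 9 genes in 1 comparison, 4 in 2 and 2, Cpr92F and Lcp1, in 3. In 13 of the 15 the lowest value was that of a 51B genotype, as it was for 87.7% of the 57 and for 61.2% of all analysed genes on the deposited scale. Over the 57 analysed genes, the V966M heterozygote was highest for 25, the 51B homozygote for 23, the V966M homozygote for 9 and the 51B heterozygote for 0. Over all analysed genes these shares were 54.4%, 31.5%, 2.24% and 11.9%, on the deposited scale.

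Genes on chromosome 3, which differ between balancer and Ago2 chromosome in a heterozygote, were set beside the rest. Of the 57 analysed genes, 33 lie on chromosome 3 and 24 elsewhere. Within 51B, 3 of the 33 were called higher (all chromosome 3 genes 2.07%) and 1 lower (1.38%), while 1 of the 24 was higher (other chromosomes 1.40%) and 1 lower (0.920%). Their median log2 changes were 0.31 and 0.11, and 0.20 and -0.01 after rescaling. Rescaled, 3 of the 24 were called lower, where 77 of all 6089 analysed genes on other chromosomes were. On chromosome 3, 1 of the 33 was called lower after rescaling, where 81 of all 4783 analysed genes were. Within V966M the medians were -0.01 on chromosome 3 and -0.19 elsewhere, and 0.18 and 0.02 after rescaling, with 1 call (Cpr72Ea) after rescaling alone, where 0.12% of all analysed genes were called higher.

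Between heterozygotes, 4 of 33 chromosome 3 genes and 5 of 24 others were called higher in V966M (all genes 2.36% and 3.02%). Between homozygotes these counts were 3 of 33 and 3 of 24 (2.55% and 2.91%), and both genes lower in V966M lie on chromosome 3 (2.68%). Within each stock the homozygote differs from its heterozygote both in Ago2 genotype and in the absence of TM3, and these cannot be told apart for any gene, on chromosome 3 or elsewhere. Cpr49Ab, Lcp1 and Lcp2 lie on 2R. Differences elsewhere in the genome between the 2 stocks were not tested.

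**Figure D4:**
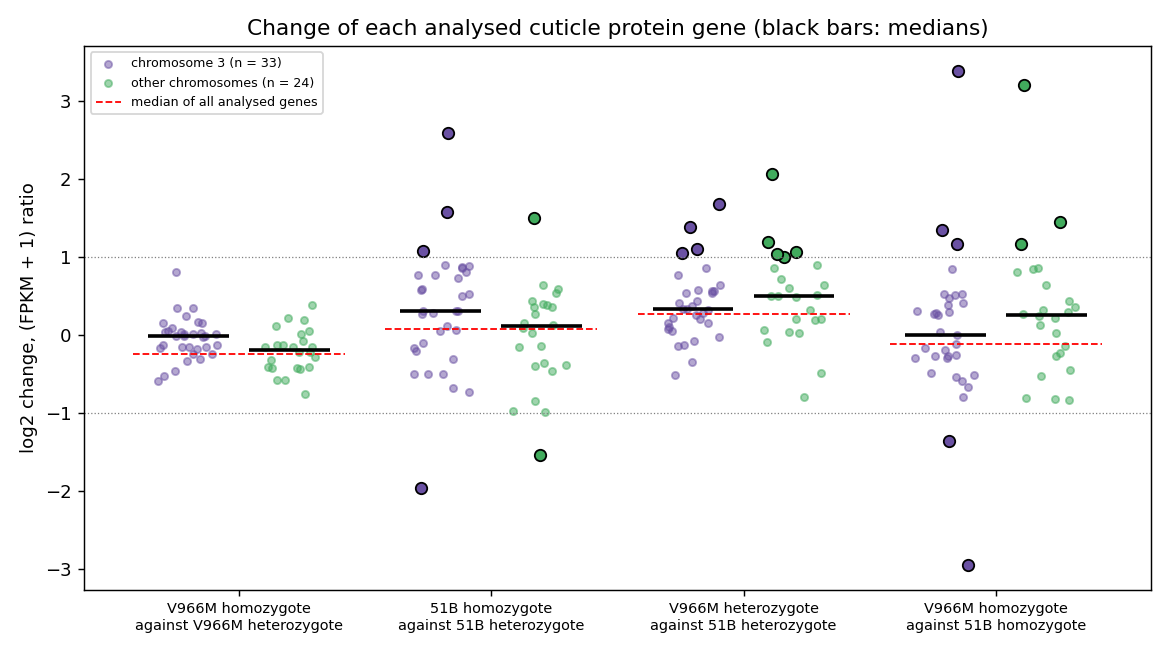
Log2 change of (FPKM + 1) for the 57 analysed cuticle protein genes in each comparison, 33 on chromosome 3 and 24 on other chromosomes. Black bars are medians of the cuticle genes, red dashed lines medians of all analysed genes, dotted lines the 2-fold threshold and black outlines called genes; V966M homozygote against heterozygote has none.

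Other genes of cuticle formation were read from lists of chitin, matrix, tanning, eclosion and lens genes. Their calls and medians are given on the deposited scale alone. After rescaling, calls close to the threshold can be lost, as that of Cpr76Bb was. Over all analysed genes, 1.69% were called higher and 1.12% lower in 51B, and 0.0644% and 0.35% in V966M. Between heterozygotes these shares were 2.73% and 0.304%, and between homozygotes 2.75% and 2.78%. The median log2 change over all analysed genes was 0.07 in 51B and -0.25 in V966M. Of 25 analysed genes of chitin synthesis and assembly, 0 were called in V966M or between heterozygotes. In 51B, 2 were higher and 0 lower: Cht4, of the chitinase family, with 2.32, 4.86, 4.65 and 22.4 FPKM, and Idgf3, a chitinase-like growth factor, with 47.2, 41.2, 48.7 and 140.2 FPKM. Like Cpr64Ac and Cpr67Fb, both had their highest value in the 51B homozygote and were called lower in the V966M homozygote than there. Idgf1 and Cht12, which share loci with other genes, were also lower in that comparison (log2 differences -1.08 and -1.04). The list's median was 0.23 in 51B and -0.18 in V966M.

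Of 20 analysed tanning and pigmentation genes, 1 was higher and 1 lower in 51B, and 1 lower in V966M. The shares over all analysed genes were 1.69%, 1.12% and 0.35%. The gene e, whose enzyme joins beta-alanine to dopamine for tanning, had 81.3, 53.5, 73.0 and 156 FPKM. It was higher in the 51B homozygote, close to the threshold (log2 change 1.08). The yellow gene y had 12.2, 8.30, 3.53 and 1.01 FPKM, shares its locus with 12 other genes, and is the gene of the y+ marker on the TM3 of the 51B heterozygote. Tyrosine hydroxylase, encoded by ple and the starting enzyme of the tanning pathway, had 266, 108, 161 and 262 FPKM and was lower in the V966M homozygote. Between heterozygotes y was higher and yellow-e2 lower in V966M, and between homozygotes y was higher and e and ple lower. The list's median log2 change was -0.30 in V966M and 0.12 in 51B.

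Among 18 eclosion and ecdysone response genes, 1 was called higher in 51B, where 1.69% of all analysed genes were. It was Eip75B, an ecdysone-induced nuclear receptor gene that shares its locus with 3 others, with 27.1, 25.4, 19.1 and 49.2 FPKM. The ecdysis hormone gene ETH had 4.98, 3.59, 4.67 and 9.28 FPKM and was called only between homozygotes, lower in V966M. Eip93F and Eip74EF, also ecdysone-induced, were not called in any comparison, with 51B log2 changes of 0.75 and 0.74. Medians of the list were -0.22 in V966M and 0.14 in 51B.

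Of 5 analysed apical matrix genes, neo alone was called, between homozygotes and lower in V966M (1.62 and 4.26 FPKM). The matrix gene pio had 89.9, 73.5, 56.8 and 86.1 FPKM. Among 4 corneal lens genes, retinin had 329, 287, 166 and 352 FPKM. It was higher in the 51B homozygote than in its heterozygote, close to the threshold (log2 change 1.07). The crystallin gene, listed as Cry on 2L, had 18.9, 17.4, 19.7 and 37.9 FPKM. It was called between homozygotes, lower in V966M and close to the threshold (log2 difference -1.08). Cpr66D, the other cuticle protein gene of the lens, had 5.79, 4.50, 3.53 and 4.52 FPKM and was not called. Summed, 13 photoreceptor genes had 2342, 1975, 1495 and 2038 FPKM, and their part in the lens gene values was not tested.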

How the data were processed

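RNA of 4 genotypes was quantified by the authors as FPKM per gene; the submitters' processing notes name TopHat, Cufflinks and dm3. Tool versions, the annotation and whether strand was used are not stated in the labels or headers. The deposited table held FPKM, both interval bounds (level not stated) and a status per genotype, per the file headers. The design text names 2 sequencings of each genotype, whereas the table holds 1 value, so each genotype entered as n = 1. Genes with status OK in every genotype and a mean of at least 1 FPKM were analysed. Calls needed a 2-fold change of (FPKM + 1), a scale that understates changes of low genes, and intervals that did not overlap. Alternatives were a pseudocount of 0.1 FPKM, no minimum, a minimum of 5 FPKM, rescaling (factors 1.13, 0.936, 0.932 and 1.02), and leaving out genes that share a locus. Named were the 30 cuticle genes with the highest mean and all called ones. Genes outside that rule, such as Cpr66Cb, TwdlS, Cpr11A, Cpr11B, TwdlT, Cpr66D, Cpr67Fa2, Lcp3, Lcp4, TwdlP, Edg91, Pcp and resilin, were chosen after their values were seen. From each pathway list up to 4 genes were named. Members and lists were chosen with earlier results of these data known. Deposited starts were taken to count from 0 and are printed counting from 1. Gene structure came from canonical transcripts of Ensembl release 115. Sums over marker lists use genes with status OK in every genotype, since a failed estimate is listed at 0. The calling rule was tested on simulated data. Python 3.11.15, pandas 2.3.3 and numpy 2.4.6 were used.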

Additional observations from a re-analysis of the deposited data

How the results depend on the processing

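Of 23 calls, 17 were kept after rescaling, with 0 reversed. All 23 were kept with a pseudocount of 0.1 FPKM and without the minimum level, but neither setting can remove a call. The smaller pseudocount only enlarges changes, and dropping the minimum only adds genes. With a mean of at least 5 FPKM 18 calls were left, and 22 without genes that share a locus. Both settings only leave out genes and change no value, so they cannot test the calls that remain. With the pseudocount of 0.1 FPKM, 6 cuticle genes were lower in the 51B homozygote in place of 2, where the share of all analysed genes called lower went from 1.12% to 1.91%. Without the minimum, 4 of 122 were lower there, where 0.962% of 13197 genes were. Rescaling gave 4 lower there, where the share of all analysed genes went from 1.12% to 1.45%. In V966M it gave 1 higher in place of 0 (all analysed genes 0.0644% to 0.12%). Between heterozygotes it gave 4 higher in place of 9 (all analysed genes 2.73% to 1.23%) and 1 lower in place of 0 (0.304% to 0.717%). The median log2 change within V966M turned from -0.14 to 0.11 after rescaling, and between homozygotes from 0.22 to -0.0025 without the minimum. The latter shift is partly built in, as the 65 genes added have means below 1 FPKM, where the added 1 FPKM draws log2 values toward 0. Within 51B the median of cuticle genes off chromosome 3 turned from 0.11 to -0.01 after rescaling. The other counts stayed within 1.5 times. With 1 value per genotype no replicate could be left out and no paired analysis was possible because no genotype had a second value; depth is unknown, so the deposited interval is the only measure of precision.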
